A study of Mus musculus with 4 samples.

Results

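Type 1 conventional dendritic cells (cDC1) were picked out of 4 single-cell RNA sequencing libraries of CD45+ leukocytes from the healthy mouse liver. A cell counted as a cDC1 where Xcr1 and Clec9a together held at least 1 unique molecular identifier (UMI, a tag that counts 1 captured RNA molecule), where at least 3 of the 5 markers Xcr1, Clec9a, Wdfy4, Tlr3 and Naaa held at least 1 UMI, and where Cd3d, Cd3e and Cd79a, which mark T and B cells, held none. This rule found 99 cells among the 1593 cells kept, or 6.21%. The 5 marker genes therefore chose the cells, and their levels are given below as a description, with no test. All mice carried PA-GFP, a green fluorescent protein that light switches on, in the C57BL/6 strain, and all were treated by photoactivation, so the groups shared genotype and treatment. They differed in the zone of the liver: 2 libraries came from around the portal vein (PV) and 2 from around the central vein (CV). The labels do not say whether replicates came from separate mice, and name no age. A p-value here thus measures only how these libraries vary, and that variation may be technical. Values per library are given throughout in the order PV replicate 1, PV replicate 2, CV replicate 1 and CV replicate 2.

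Conventional dendritic cells take up antigen in tissues and present it to T cells. The cDC1 branch depends on the transcription factors IRF8, BATF3 and ID2, grows under the cytokine FLT3 ligand, and is known for cross-presentation, the loading of peptides from engulfed dead cells or pathogens onto MHC class I for CD8 T cells. In the liver, cDC1 are a small part of the myeloid cells, next to the far more numerous Kupffer cells, which are the resident macrophages of the sinusoids, and next to type 2 dendritic cells (cDC2), which mainly present antigen on MHC class II to CD4 T cells.

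Promoter sequences are shown for the 2 receptors that define the class and for 3 genes whose promoter held a motif of factors that act in these cells. The sequences are the 250 bases before the annotated start, from RefSeq on build GRCm38.p6, written along the strand of the gene. Xcr1, the receptor for the chemokine XCL1 that T and NK cells release, lies at chr9:123852315-123862029 on the minus strand, and its promoter is the window chr9:123862030-123862279. Clec9a, a lectin that binds actin of dead cells, lies at chr6:129408862-129424763 on the plus strand, with its promoter at chr6:129408612-129408861. Ifi205, an interferon-inducible gene of a DNA-binding family, has its promoter at chr1:174031756-174032005, minus strand. Tlr11, a sensor of microbial profilin, has its promoter at chr14:50357664-50357913, plus strand, and Cd207, the lectin langerin, at chr6:83677858-83678107, minus strand. Capitals mark the motif match.
Xcr1: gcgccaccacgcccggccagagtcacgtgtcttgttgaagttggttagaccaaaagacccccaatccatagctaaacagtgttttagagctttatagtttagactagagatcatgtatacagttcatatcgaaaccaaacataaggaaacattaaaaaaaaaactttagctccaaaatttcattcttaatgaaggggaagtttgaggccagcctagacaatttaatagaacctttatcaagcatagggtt
Clec9a: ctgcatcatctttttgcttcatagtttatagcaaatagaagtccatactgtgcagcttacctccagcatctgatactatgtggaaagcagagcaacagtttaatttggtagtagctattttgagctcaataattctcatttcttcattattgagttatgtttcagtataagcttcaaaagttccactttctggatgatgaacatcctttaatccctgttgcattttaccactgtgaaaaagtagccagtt
Ifi205: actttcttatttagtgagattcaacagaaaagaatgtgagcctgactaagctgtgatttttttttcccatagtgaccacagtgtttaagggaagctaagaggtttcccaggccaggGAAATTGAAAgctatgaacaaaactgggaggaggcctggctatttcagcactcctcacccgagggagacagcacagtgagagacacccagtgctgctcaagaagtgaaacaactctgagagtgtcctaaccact
Tlr11: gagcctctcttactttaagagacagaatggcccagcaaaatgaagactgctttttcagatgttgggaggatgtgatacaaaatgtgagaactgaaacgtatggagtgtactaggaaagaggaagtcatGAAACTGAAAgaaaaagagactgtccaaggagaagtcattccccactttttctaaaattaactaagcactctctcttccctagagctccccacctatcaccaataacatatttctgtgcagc
Cd207: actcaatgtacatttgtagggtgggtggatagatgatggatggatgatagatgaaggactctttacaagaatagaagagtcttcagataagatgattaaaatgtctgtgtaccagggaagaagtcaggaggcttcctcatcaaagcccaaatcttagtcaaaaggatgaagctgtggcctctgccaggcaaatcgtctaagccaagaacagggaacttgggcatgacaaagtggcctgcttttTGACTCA
The motifs searched on both strands were the AP-1 site TGANTCA, which BATF3 can bind with JUN partners, the paired IRF site (GAAA, any 2 bases, GAAA) and the ETS-IRF site (GGAA, any 2 bases, GAAA). The last 2 motifs differ in 1 base, so no stretch on 1 strand matches both. Of 70 genes searched, namely the 5 markers, the factor, receptor and further cDC1 lists, Tlr11 and Tlr12, 54 had a promoter in the table. Ifi205 and Tlr11 were among 6 genes with the paired IRF site, 124 and 112 bases before the start, and the share of all 32851 promoters with this site was 2.98%. Cd207 was among 6 genes with the AP-1 site, 0 bases before the start, against 6.75% of all promoters. The ETS-IRF site was found for 3 of the genes, Bcl6, Cd8a and Ffar2, against 2.30% of all promoters. Xcr1 and Clec9a held none of the 3 motifs in these windows, and neither did Wdfy4, Tlr3, Naaa, Irf8 and Batf3. A gene can have more than 1 promoter, as Irf8 does, so counts of genes and shares of promoters are not in the same unit.

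The 4 libraries held 588 to 755 barcodes and 2741760 to 4373488 UMIs, and 333 to 512 cells per library were kept. Of 1939 distinct barcodes, 282 occurred in more than 1 library, and 52 of the 99 cDC1 carried such a barcode, 23 of them one found in all 4 libraries. Each cell was counted only in the library with most of its UMIs, which for these 52 cells held 79.1% to 95% of them (median 88.7%). PV replicate 1 stood apart from the other libraries in its macrophages: by the marker rule used below it held 3 Kupffer cells, against 112 in PV replicate 2, 51 in CV replicate 1 and 35 in CV replicate 2. The doublet caller marked 2 of the 99 cells, which were kept. The cDC1 were deep cells, with a median of 21283 UMIs against 5695.5 in the other kept cells, and their depth differed little between libraries (medians of 22800.5, 21320, 20507.5 and 21719.5 UMIs). A median of 3545 to 3906 genes was detected per cDC1, and mitochondrial genes took a median of 1.64% to 1.95% of their UMIs.

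The marker rule took in mostly cells with the complete cDC1 profile and a smaller mixed group. All 5 markers were detected in 76 of the 99 cells (76.8%), 4 markers in 3 cells and 3 markers in 20 cells. The 76 cells had a median of 9.5 Xcr1, 8.5 Clec9a, 10 Wdfy4, 6 Tlr3 and 19 Naaa UMIs. The 20 cells with 3 markers had medians of 0 for Xcr1, 1 for Clec9a, 1 for Wdfy4, 0 for Tlr3 and 1 for Naaa. Genes outside the rule split the same way: the cells with 5 markers had a median of 31 Irf8 UMIs and 543 Cst3 UMIs (Cst3 encodes the protease inhibitor cystatin C, abundant in dendritic cells), against 3 and 50 UMIs in the cells with 3 markers. The depth differed less, at medians of 22241 and 16089 UMIs. Just outside the rule lay 31 cells with 2 of the markers, with a median of 5 Irf8 and 18 Cst3 UMIs.

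**Figure D1:**
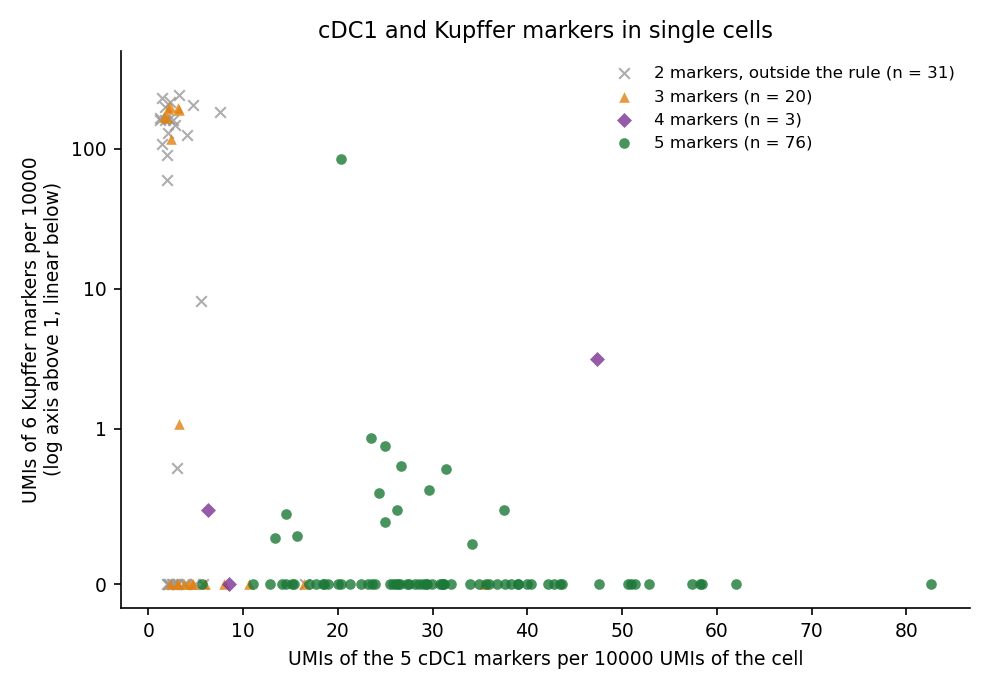
Each point is 1 cell, with the UMIs of the 5 cDC1 markers per 10000 UMIs of the cell on the x axis and those of 6 Kupffer markers on the y axis (log above 1, linear below), coloured by the number of cDC1 markers detected. The 76 cells with 5 markers spread to the right with few or no Kupffer UMIs, apart from 1 cell, while the 20 cells with 3 markers and the 31 cells with 2 lie mostly at the left, and 7 and 18 of them met the Kupffer limit of 3 markers.

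Markers of other cells sat mainly in the cells with 3 markers. These 20 cells were each counted once, at the first limit met in the order given here. Of them, 7 had at least 3 of the Kupffer markers Clec4f, Vsig4, Cd5l, Timd4, Marco and Fcna. A further 2 had at least 10 UMIs of Siglech, a receptor of plasmacytoid dendritic cells, and 6 had at least 3 UMIs of Cd209a, a lectin of cDC2. Another 2 had at least 5 UMIs of Ccr7, the homing receptor of migrating dendritic cells, and 3 met none of these limits. Among the 76 cells with 5 markers, 1 met the Kupffer limit. The 8 cells with at least 3 Kupffer markers numbered 0, 4, 2 and 2 by library. The main results below are therefore also given, as an alternative added after seeing the data, for the 75 cells with all 5 markers and under 3 Kupffer markers, called the strict cDC1. They numbered 32 and 20 in the PV libraries and 12 and 11 in the CV libraries. The summed level of 10 Kupffer genes was 488, 5955, 3410 and 7119 counts per 1000000 UMIs (CPM) over all members. In the strict cDC1 it was 319, 24.2, 19.3 and 30.8 CPM, and 1 cell held 96.3% of the first value. Over all members, the sum of 10 T cell genes was at most 13.6 CPM and that of 10 neutrophil genes at most 22.1 CPM. The sum of 10 NK cell and ILC1 genes was 38.8, 15.3, 557 and 20.4 CPM, with Ncr1, Klra8 and Eomes at 0, and 1 cell held 89.6% of the value of CV replicate 1. The sum of 10 B and plasma cell genes was 148, 202, 150 and 167 CPM, mostly from Ighm, with 4 of the 10 genes at 0. The sum of 10 monocyte genes was 1926, 2778, 2161 and 1839 CPM, with Chil3, Fn1, F13a1, Ace and Cd177 at 0. The pan-leukocyte gene Ptprc, which encodes CD45, was at 384, 399, 314 and 487 CPM, and 95 of the 99 cells held a UMI of it.

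The markers themselves were at similar levels in the 4 libraries. Xcr1 stood at 457, 307, 398 and 327 CPM, and the zones overlapped. Clec9a stood at 478, 246, 378 and 429 CPM. Naaa, a lysosomal amidase, stood at 950, 731, 984 and 756 CPM. Wdfy4, which is needed for cross-presentation by cDC1, ranged from 375 to 493 CPM over the libraries, and Tlr3, the endosomal sensor of double-stranded RNA, from 251 to 312 CPM. When every cell was thinned to 5000 UMIs, 71.3% of 94 cDC1 held an Xcr1 UMI and 76.6% a Clec9a UMI (80.8% and 99% of the 99 cells before thinning). In 119 Kupffer cells thinned likewise, 0 cells held an Xcr1 UMI, which allows a share of cells with a UMI of up to 2.52% (1 Kupffer cell, or 0.498%, held one before thinning), and 16.8% held a Clec9a UMI. In 599 T cells these shares were 0.668% and 1.34%. The rule fixes these shares in the cDC1. It also limits them in the Kupffer cells, since a cell that met the cDC1 rule was not counted as a Kupffer cell.

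The first question was whether cDC1 took a different share of the leukocytes in the 2 zones. They were 38 of 333 kept cells in PV replicate 1 (11.4%, Wilson 95% interval 8.43% to 15.3%), 29 of 512 in PV replicate 2 (5.66%, 3.97% to 8.02%), 18 of 372 in CV replicate 1 (4.84%, 3.08% to 7.52%) and 14 of 376 in CV replicate 2 (3.72%, 2.23% to 6.15%). Both PV libraries were above both CV libraries, but the interval of PV replicate 2 overlapped those of both CV libraries. The mean share was 8.54% ± 4.06 (SD, n = 2) in PV and 4.28% ± 0.789 (SD, n = 2) in CV, a difference of 4.26 percentage points with a two-sided exact permutation p of 0.33, the smallest that 2 against 2 libraries can give. The order rested on PV replicate 1 for its size: without that library the difference was 1.38 points, and without PV replicate 2 it was 7.13 points. The intervals cover counting error only.

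The share also moved with what was counted. For the strict cDC1 it was 9.61%, 3.91%, 3.23% and 2.93%. With Kupffer cells, which are few in PV replicate 1, left out of the total, the share of all members was 11.5%, 7.25%, 5.61% and 4.11%. When barcodes found in several libraries were kept in each of them, it was 8.53%, 6.19%, 6.14% and 5.31%, and the difference between zones fell to 1.64 points. The same barcode then counts in several libraries, so these shares are not independent and are drawn together by construction. The order of the libraries was the same under each count, and the exact permutation p was 0.33 each time.

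**Figure D2:**
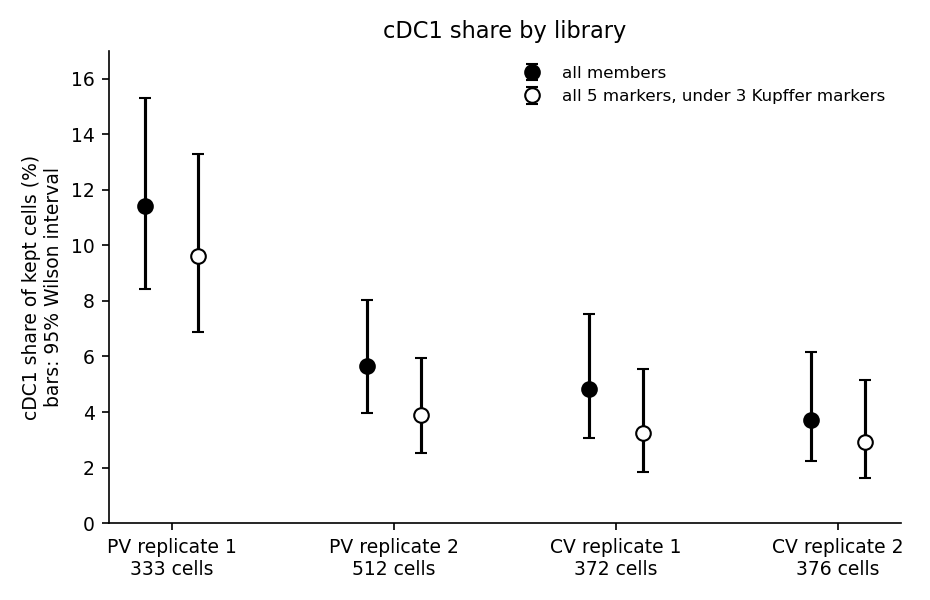
The cDC1 share of kept cells in percent (y axis) is drawn for each library (x axis), with 95% Wilson intervals as bars, filled for all members and open for the strict cDC1. PV replicate 1 stands highest at 11.4% and 9.61%, and the intervals of the other 3 libraries overlap each other.

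The transcription factors of the lineage were the first group examined, by role and in every library. Irf8, the factor that sets the cDC1 fate, stood at 1399, 1125, 1295 and 1141 CPM, and every one of the 75 strict cDC1 held at least 1 UMI of it (median 31, range 1 to 92). Batf3, its partner at cDC1 enhancers, stood at 162, 205, 202 and 255 CPM. Id2, an inhibitor of E proteins that opposes the plasmacytoid fate, stood at 1010, 859, 1012 and 1260 CPM. The zones overlapped for Irf8 and Batf3, while both PV values of Id2 lay just under both CV values. Zbtb46, a factor of conventional dendritic cells, stood at 54.4, 40.7, 57.7 and 37.5 CPM. Zeb2, which drives the cDC2 and macrophage fates, stood at 23.3, 132, 170 and 163 CPM over all members, and at 16.3, 2.42, 7.73 and 0 CPM in the strict cDC1, where 4 of 75 cells held a UMI.

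Surface receptors of cDC1 were examined next. Cd24a, a mucin-like surface protein, stood at 368, 243, 297 and 296 CPM, and Cadm1, an adhesion molecule that binds CRTAM on T cells, at 230, 224, 306 and 317 CPM. Itgae, the integrin chain CD103 that binds E-cadherin, stood at 186, 104, 127 and 64.7 CPM and was detected in 55 of 99 cells. Cd207 was uneven, at 22, 61.1, 202 and 116 CPM, with UMIs in 28 of 99 cells. Both CV libraries were higher for Cd207 than both PV libraries. Btla, an inhibitory receptor, stood at 138, 88.2, 141 and 116 CPM, and Cd36, a scavenger receptor, at 179, 151, 167 and 242 CPM. Sirpa, the receptor for CD47 that marks cDC2 and macrophages, stood at 14.2, 81.5, 69.2 and 146 CPM over all members, but 1 of 75 strict cDC1 held a UMI of it.

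**Figure D3:**
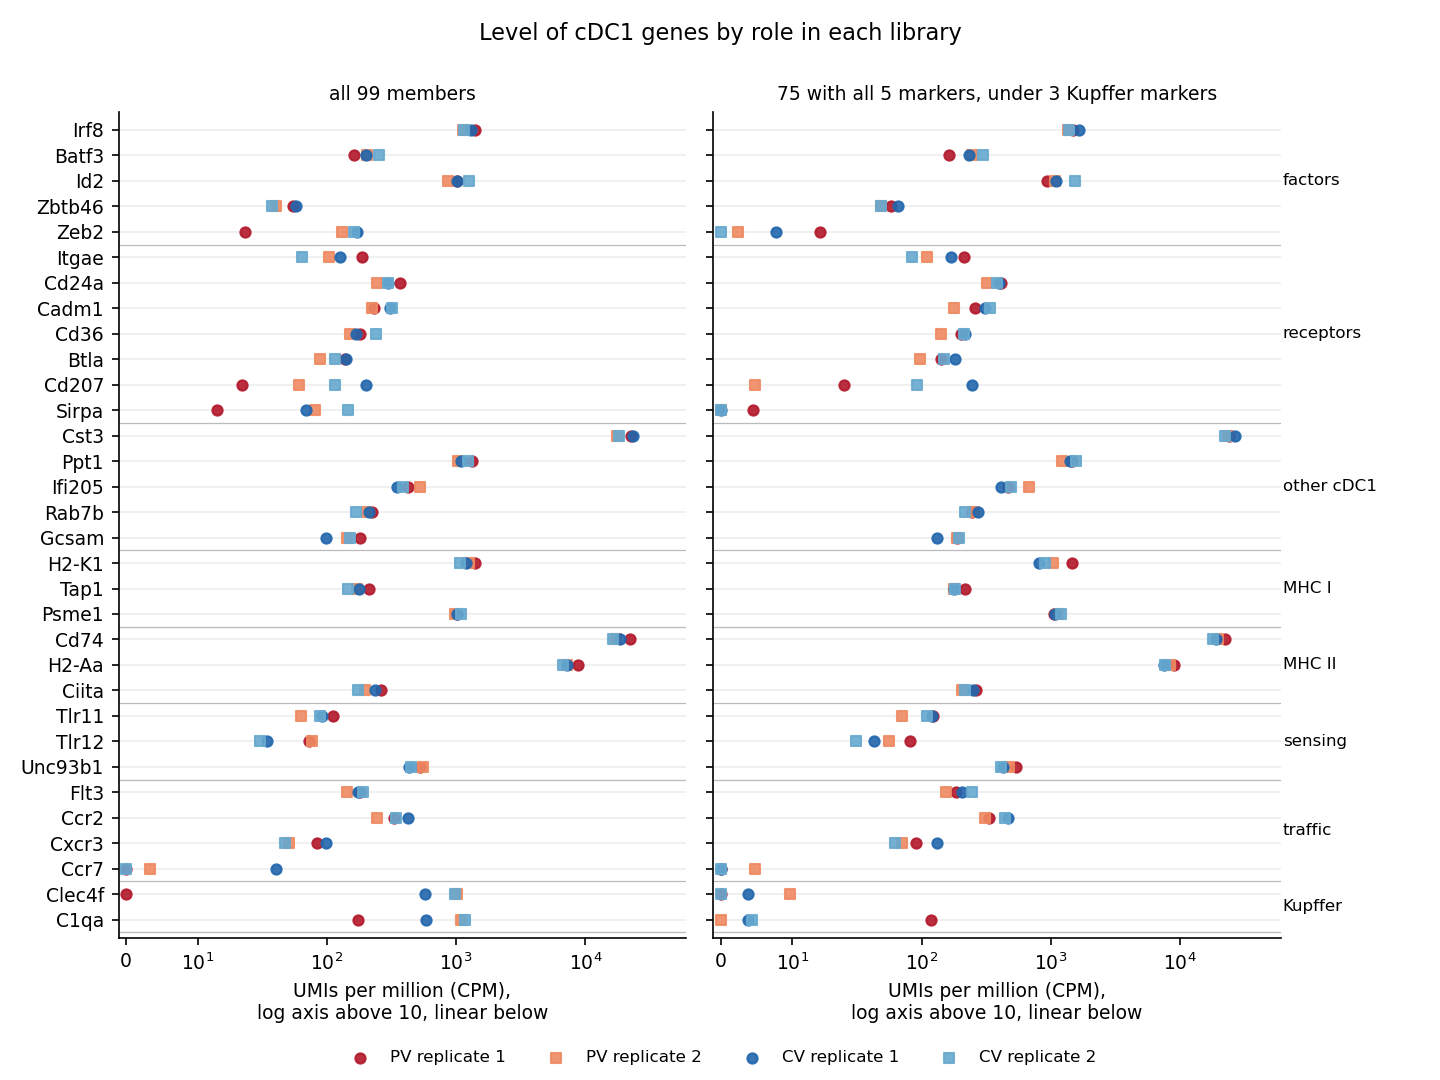
Levels in CPM (x axis, log above 10) of genes grouped by role (y axis) are drawn for each of the 4 libraries, with all 99 members at the left and the 75 strict cDC1 at the right. Irf8, Cst3 and Ppt1 lie close together in all libraries in both panels, while Zeb2, Sirpa and Clec4f are high in 3 libraries at the left and near 0 in the same libraries at the right.

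The second question was whether cDC1 themselves differed between the zones. On UMI counts summed per library, 0 of 5001 genes passed edgeR's quasi-likelihood test at an adjusted p under 0.05 (0% called in either direction). At an unadjusted p under 0.05 there were 200 genes, and DESeq2 called 1 gene, Ly6a. On simulated sums the edgeR test between zones recovered 11.9% of 2-fold and 62.7% of 4-fold changes, so most 2-fold differences could be missed. In the same simulation it also made 19 false calls among genes that had not been changed. In the data, the CPM of the zones did not overlap for 1651 genes, or 33.0%. Among the strict cDC1, 0 of 3703 genes passed (0%) and 236 had an unadjusted p under 0.05. Without PV replicate 1, 12 genes were called, and without PV replicate 2, 56 genes. The genes below were named by the smallest p among genes whose zones did not overlap, so the lack of overlap in all members is part of that choice, and they did not pass.

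Ly6a had the smallest p. Ly6a, which encodes the surface antigen SCA-1 and responds to interferon, stood at 199, 239, 40.4 and 51.1 CPM, with no overlap of the zones. Its log2 fold change between PV and CV was 2.32 ± 0.248 (SE), with an edgeR unadjusted p of 4.36e-05 and an adjusted p of 0.218. DESeq2 gave an adjusted p of 0.00707. In edgeR the adjusted p was 1.53e-08 with no filter on low counts, 0.00631 without PV replicate 1 and 0.0103 without PV replicate 2, where 1 library stands for its zone. Its level in the strict cDC1 was 211, 99.2, 50.3 and 48.4 CPM. After thinning to 5000 UMIs, 16 of 36, 11 of 28, 2 of 17 and 4 of 13 cDC1 held a Ly6a UMI. In Kupffer cells Ly6a was likewise higher in the PV libraries, at 313 and 129 CPM, than in the CV libraries, at 19.5 and 19.6 CPM. The Kupffer value of PV replicate 1 rests on 3 UMIs. T cells held Ly6a more widely (74.6% of 599 thinned T cells), and the part of free RNA in the cDC1 values was not tested.

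Cxcl9, a chemokine that draws CXCR3-bearing T cells and is induced by interferon gamma, stood at 476, 173, 17.3 and 0 CPM. Single cells carried this difference: 343 of 368 Cxcl9 UMIs in PV replicate 1 came from 1 cell with all 5 markers, and 68 of 102 in PV replicate 2 from another cell. The strict cDC1 values were 544, 16.9, 7.73 and 0 CPM. Cxcl9 UMIs were held by 10 of 99 cells, and the edgeR adjusted p was 1. With the replicate number as a block it was 0.0342. It was 0.0057 without PV replicate 1 and 0.00204 without PV replicate 2, where the lone PV library is assumed to vary like the CV pair. Cxcl9 in PV replicate 2 was higher in the other myeloid classes than in cDC1, at 564 CPM in cDC2 and 715 CPM in Kupffer cells.

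Further genes had the lowest p among those higher in PV. Lgals1, the galactose-binding lectin galectin-1, stood at 223, 210, 89.4 and 78.3 CPM (log2 fold change 1.43 ± 0.236). Odc1, the first enzyme of polyamine synthesis, stood at 88, 78.1, 26 and 34 CPM. Tlr12, which senses profilin together with TLR11, stood at 72.5, 76.4, 34.6 and 30.6 CPM, and Atf3, a stress-induced transcription factor, at 158, 292, 101 and 61.3 CPM. For each of these 4 genes both PV libraries were above both CV libraries, in all members and in the strict cDC1, and each had an edgeR adjusted p of 1. Stt3a, Rnf34, Dpy19l4 and Cdk6 followed, with log2 fold changes of 1.18, 1.89, 2.54 and 1.83.

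Of the 10 genes named as lower in PV, 7 act in cell division. Top2a, the topoisomerase of dividing cells, stood at 78.9, 98.4, 199 and 215 CPM, and Mki67, the proliferation antigen Ki-67, at 59.5, 40.7, 121 and 259 CPM. Cenpe, Aurkb, Knl1, Kif15 and Tubb4b, which act in the mitotic spindle and kinetochore, had log2 fold changes of -2.67, -2.10, -1.78, -1.77 and -1.82. The edgeR adjusted p was 1 for each. In the cell cycle list, 0 of 26 tested genes passed, 0 had a fold change above 0, and the median log2 fold change was -0.84, against 8.75e-04 over all genes tested. For the strict cDC1, 1 of 21 was above 0 and the median was -1.11, but the zones overlapped for Top2a, at 23.7, 140, 81.2 and 277 CPM.

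Few cells carried these counts. At least 5 UMIs of Mki67 and Top2a together were held by 4 of 38 cDC1 in PV replicate 1, 2 of 29 in PV replicate 2, 4 of 18 in CV replicate 1 and 3 of 14 in CV replicate 2, or 6.9% to 22.2% of a library. Both CV libraries had the higher shares, from 13 cells in all. After thinning to 5000 UMIs the zones overlapped: a Mki67 UMI was held by 5 of 36, 5 of 28, 3 of 17 and 4 of 13 cDC1, and the counts for Top2a were the same. In CV replicate 2, 58 of 76 Mki67 UMIs came from 1 cell. The strict cDC1 counts were 2 of 32, 2 of 20, 3 of 12 and 3 of 11 cells. Over all members, the cells with at least 5 UMIs were also the deeper ones, with medians of 27750, 28008, 26549 and 31044 UMIs against 21826, 21320, 20234 and 18530 in the rest of each library. Among the strict cDC1 of PV replicate 1 they were the shallower ones, at 19763 against 23134 UMIs. The genes of the cell cycle list made up 3277, 3794, 4941 and 7174 CPM of the cDC1 sums.

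Cd34, Dusp10 and Hes1 were further genes lower in PV. Cd34, a sialomucin best known from progenitors and endothelium, stood at 37.5, 37.3, 127 and 98.7 CPM (log2 fold change -1.53 ± 0.288), and 43 of 99 cells held it. Dusp10, a phosphatase of MAP kinases, stood at 19.4, 22.1, 83.7 and 64.7 CPM (-1.78 ± 0.345), and Hes1, a target of Notch signalling, at 15.5, 39.0, 86.5 and 123 CPM. The zones did not overlap for these 3 genes in the strict cDC1 either, where Cd34 stood at 35.6, 53.2, 162 and 114 CPM. Hes1 lost its direction when cells with 2 of the 5 markers were added, with a log2 fold change of 0.0176.

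Cd207 had a log2 fold change of -1.93 ± 0.488 between PV and CV and an edgeR adjusted p of 1. Its strict cDC1 levels stood at 25.2, 4.84, 247 and 92.4 CPM, a log2 fold change of -3.26 with an adjusted p of 0.511. With at least 4 of the 5 markers required, its adjusted p was 0.0275, and without PV replicate 2 it was 0.0270. A Cd207 UMI was held, after thinning to 5000 UMIs, by 2 of 36, 3 of 28, 7 of 17 and 4 of 13 cDC1. Kupffer cells held Cd207 at 313, 148, 156 and 259 CPM, and 42.0% of thinned Kupffer cells had a UMI. The zones overlapped there only through PV replicate 1, whose value rests on 3 UMIs.

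**Figure D4:**
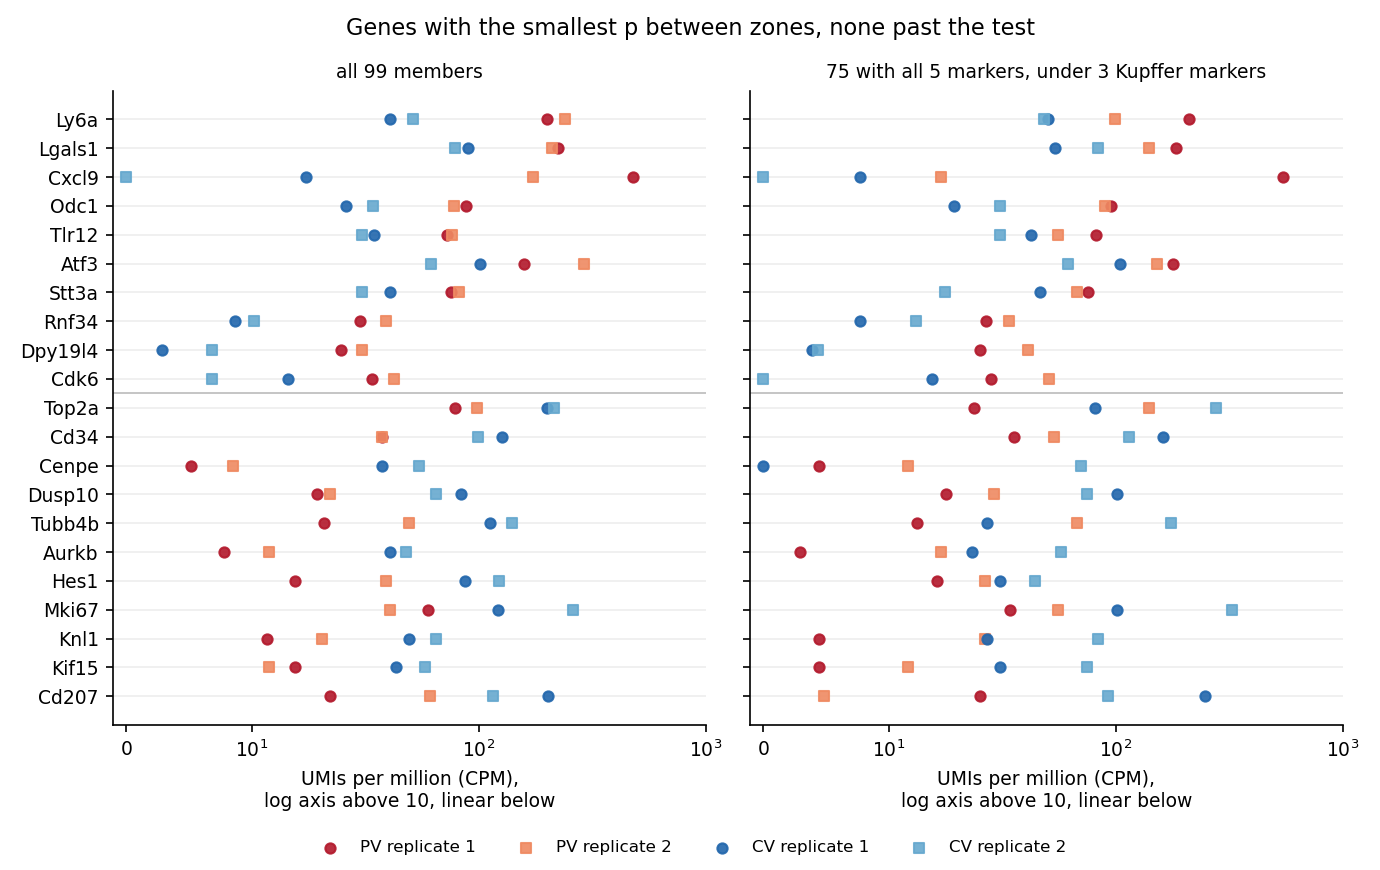
Levels in CPM (x axis, log above 10) of the genes with the smallest p between zones and of Cd207 (y axis) are drawn per library for all 99 members (left) and the 75 strict cDC1 (right). In all members the 2 PV points (red and orange) lie above or below both CV points (blue shades) for each gene, while in the strict cDC1 genes such as Top2a and Cenpe overlap.

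In none of the lists did a gene pass between the zones. In the Kupffer list, 0 of 10 genes were above 0, with a median log2 fold change of -0.78, and 0 of its genes could be tested in the strict cDC1. The receptors and bridges of apoptotic cells had a median of -0.45 over 9 genes (0.45 over 3 in the strict cDC1), and the plasmacytoid dendritic cell list one of 1.09 over 3 genes. In MHC class II presentation, 11 of 15 tested genes were above 0, with a median log2 fold change of 0.23, and H2-Aa, a class II chain, stood at 8695, 7238, 7194 and 6697 CPM. In MHC class I presentation, 18 of 24 were above 0, with a median of 0.17, and H2-K1, a class I heavy chain, stood at 1407, 1257, 1188 and 1069 CPM. The interferon list had a median of 0.56 over 11 genes in all members and 0.0474 over 7 genes in the strict cDC1. The maturation list had a median of -0.14 over 12 genes, and the list of chemokine and growth factor receptors one of -0.0170 over 17 genes. In each of these lists 0 genes passed edgeR, against 0% of all genes tested.

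Genes of maturation differed in how many cDC1 held them. Ccr7 UMIs were found in 3 of 99 cells and Ccl22, a chemokine of mature dendritic cells, in 5 cells, while Cd83, a surface protein of activated dendritic cells, was found in 53 cells and the adhesion molecule gene Icam1 in 47 cells. In CV replicate 1, 1 member with 3 markers held 6 Ccr7, 111 Ccl22, 173 Ccl5 and 70 Il12b UMIs and 0 Irf8 UMIs. That cell held 70 of the 81 Il12b UMIs of its library, which put Il12b, the shared chain of interleukin 12 and 23, at 24.6, 15.3, 234 and 3.40 CPM. A second member of CV replicate 1 with 3 markers and 6477 UMIs held 8 Ccr7 and 9 Il12b UMIs. Just outside the rule, a cell of PV replicate 2 with 2 markers held 94 Ccr7, 22 Fscn1, 336 Ccl5, 33 Il4i1 and 1160 Cst3 UMIs. Il12a was at 0 in every member. Cd86, a costimulatory ligand, was at an even level of 140, 143, 159 and 140 CPM.

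The third question was how cDC1 differed from cDC2 of the same libraries. The cDC2 were cells with at least 3 of Cd209a, Clec10a, Mgl2, Sirpa and Flt3 and no UMI of Clec4f, Vsig4 or Siglech, and numbered 4, 10, 0 and 2, so that CV replicate 1 gave no pair. The 2 cells of CV replicate 2 went in part against the name: they held no Clec10a, their Lyz2, a lysozyme gene of monocytes and macrophages, stood at 16598 CPM against 531 and 586 CPM in the PV libraries, and the monocyte genes Fn1, F13a1 and Ace stood at 379, 227 and 379 CPM. Without that library, 94 genes were higher and 88 lower in cDC1. Their sums held 39515, 141751 and 26389 UMIs in PV replicates 1 and 2 and CV replicate 2, where 1 UMI is worth far more CPM than in the cDC1 sums. The marker genes of both classes were left out of the test, but genes that go with those markers from cell to cell are not independent of the choice. With the library as a block in edgeR, 136 of 3761 genes were higher in cDC1 (3.62%) and 129 lower (3.43%). Among the strict cDC1, 122 of 2779 genes were higher (4.39%) and 158 lower (5.69%). DESeq2 called 42 higher and 69 lower, and cDC2 chosen by at least 3 UMIs of Cd209a, Clec10a and Mgl2 gave 87 higher (2.34%) and 85 lower (2.28%) in edgeR. The result leaned on PV replicate 2, which held 10 of the 16 cDC2: without it 52 genes were higher and 72 lower.

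Of the 16 factors tested, 2 were higher and 2 lower in cDC1, with a median log2 fold change of 0.13 against 0.11 over all genes tested. Irf8 stood at 0, 49.4 and 227 CPM in the cDC2 sums, below all cDC1 sums, with a log2 fold change of 4.11 ± 0.474 and an edgeR adjusted p of 1.10e-08. Batf3 stood at 25.3, 70.5 and 37.9 CPM in cDC2 (1.92 ± 0.505, adjusted p 0.0102). Klf4, a factor needed by a branch of cDC2, was lower in cDC1, at 90.6, 134, 136 and 27.2 CPM against 354, 374 and 2577 CPM (-3.00 ± 0.513, adjusted p 3.72e-05). Zeb2, at 253, 205 and 455 CPM in cDC2, was lower in cDC1, with a log2 fold change of -1.59 ± 0.428 in all members (adjusted p 0.0123) and -5.10 in the strict cDC1. Id2 did not pass, with a log2 fold change of 0.68 and an edgeR adjusted p of 0.269.

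Among 12 receptors tested, 5 were higher and 1 lower in cDC1, with a median of 1.17. Itgae was at 0 in the cDC2 sums, so its level in cDC1 was at least 9.36-fold higher, taking 3 UMIs over the cDC2 as the floor (edgeR adjusted p 1.49e-04). Cadm1 stood at 25.3, 21.2 and 0 CPM in cDC2 (log2 fold change 3.61 ± 0.603, adjusted p 2.44e-05). Cd24a had 2 UMIs in cDC2, a ratio of 32.2 (exact counting interval 8.88 to 267, adjusted p 8.74e-07), and Cd36 likewise 2 UMIs, a ratio of 18.7 (5.13 to 155, adjusted p 9.94e-05). Here and below, such floors and counting intervals treat each UMI as independent. They leave out variation between cells and libraries and are therefore too narrow. In Kupffer cells Cd36 stood at 104, 153, 262 and 330 CPM, the first from 1 UMI, so it did not set cDC1 apart from them. Cd207, at 0 in cDC2, was at least 3.64-fold higher over all members, but it was not among the genes called in the strict cDC1. In PV replicate 2 it had 36 UMIs over all members and 2 in the strict cDC1. Itgam, the integrin chain CD11b of macrophages and cDC2, was the receptor that was lower: it stood at 10.4, 1.70, 34.6 and 0 CPM in cDC1 and 177, 261 and 379 CPM in cDC2 (-5.60 ± 0.645, adjusted p 1.10e-08).

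Further genes known from cDC1 were set against cDC2. Of 19 tested, 10 were higher and 1 lower, with a median log2 fold change of 2.72, and 11 were higher in the strict cDC1. Ppt1, a lysosomal thioesterase, stood at 1328, 1037, 1090 and 1243 CPM in cDC1 and 50.6, 63.5 and 75.8 CPM in cDC2 (4.19 ± 0.420, edgeR adjusted p 6.55e-10). Cst3 stood at 22643, 17669, 23250 and 18185 CPM in cDC1 and 8149, 7182 and 4093 CPM in cDC2 (1.65 ± 0.221, adjusted p 3.09e-07). The classes did not overlap for either gene. Ifi205, whose promoter is printed above, stood at 423, 523, 349 and 385 CPM against 2 UMIs in cDC2, a ratio of 46.9 (counting interval 12.9 to 388). Rab7b, a GTPase of late endosomes, was at least 14.3-fold higher, Gcsam, a signalling adaptor first described in germinal centre B cells, at least 11.2-fold and Gpr141b at least 8.07-fold, each with 0 UMIs in cDC2. Btg1, an antiproliferative gene, was the list member that was lower (-1.08, adjusted p 0.0155).

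Outside the lists, Ctla2b, which encodes a protein related to cathepsin propeptides, was at least 18.8-fold higher in cDC1 than in cDC2, and Xlr, an X-linked lymphocyte gene, at least 6.31-fold higher. C1qa and C1qc, chains of complement C1q, were also higher, at least 46.9- and 35.7-fold, but they did not belong to the strict cDC1: C1qa stood at 173, 1093, 583 and 1168 CPM over all members and 117, 0, 3.87 and 4.40 CPM in the strict cells, where 3 of 75 held a UMI. Apoc1, an apolipoprotein gene, had 1 UMI in cDC2 and likewise stood at 5.18, 979, 603 and 415 CPM over all members and under 5 CPM in the strict cells. Against cDC2 chosen by at least 3 UMIs of Cd209a, Clec10a and Mgl2, C1qa had a log2 fold change of 0.24 and C1qc 0.19. Without PV replicate 2, the edgeR adjusted p of Gpr141b was 0.0639 and of Xlr 0.167. Kupffer cells also held Ctla2b, at 417, 386, 432 and 373 CPM, the first from 4 UMIs.

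Genes of antigen presentation were compared by MHC class. Of 23 genes of MHC class I presentation tested, 2 were higher in cDC1 and 1 lower, with a median of 0.57, and of 20 tested in the strict cDC1, 4 were higher and 2 lower. Psme1, a subunit of the proteasome activator, stood at 1022, 981, 1021 and 1083 CPM in cDC1 and 405, 466 and 758 CPM in cDC2 (0.99 ± 0.320, edgeR adjusted p 0.0474), and Pdia3, a chaperone of class I folding, was higher by 1.44 on the log2 scale (adjusted p 0.0128). Cybb, the catalytic subunit of the phagocyte NADPH oxidase, was lower (-1.87, adjusted p 4.19e-04). Of 14 class II genes, 0 were higher and 2 lower, H2-DMb2 (-1.92 ± 0.375, adjusted p 3.38e-04) and Ctss (-1.04, adjusted p 0.0179), with a median of -0.40. Scaling by library totals gave 4 lower, and upper-quartile scaling 1 higher and 2 lower. H2-DMb2 is a chain of the peptide exchanger H2-M, and Ctss a protease that trims the invariant chain. For the strict cDC1, 6 class II genes were lower, the invariant chain gene Cd74 (-0.36, adjusted p 0.0197) among them. Cd74 itself stood at 22094, 17406, 18669 and 16224 CPM in cDC1 and 34417, 23887 and 20236 CPM in cDC2.

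Of 23 pattern recognition genes listed, 4 could be tested against cDC2, and 2 were higher in cDC1 and 0 lower (1 of 2 tested in the strict cDC1, Tlr11). Tlr11 stood at 111, 62.8, 92.3 and 88.5 CPM in cDC1 and had 1 UMI in cDC2, a ratio of 18.7 (counting interval 3.30 to 743, edgeR adjusted p 0.0105). Tlr12 also had 1 UMI in cDC2, a ratio of 13.8 (2.43 to 550, adjusted p 0.0231). In Kupffer cells Tlr12 stood at 313, 72.9, 61.2 and 94.2 CPM, the first from 3 UMIs. It was not among the genes called between cDC1 and Kupffer cells. Of 10 cytokines and chemokines tested, 0 were higher and 4 lower in cDC1. Ccl3, an inflammatory chemokine, stood at 36.2, 13.6, 144 and 6.81 CPM in cDC1 and 405, 1178 and 872 CPM in cDC2 (-5.28 ± 0.482, adjusted p 9.94e-11). Il1b, the inflammatory cytokine interleukin 1 beta, stood at 248, 193, 329 and 85.1 CPM against 152, 2603 and 985 CPM (-2.53 ± 0.503, adjusted p 4.19e-04), and the classes overlapped. Ccl4 (-2.03, adjusted p 0.00290) and Ccl9 (-3.99, adjusted p 1.75e-06) were lower as well. Ccl4 stood at 0, 1672 and 1971 CPM in cDC2, so that cDC1 were not lower for it in PV replicate 1.

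Among receptors for chemokines and growth factors, Cxcr3, the receptor for CXCL9 and CXCL10, was at 84.1, 50.9, 98.1 and 47.7 CPM in cDC1 and at 0 in cDC2, at least 4.56-fold higher (edgeR adjusted p 0.00964). Cxcr4, the receptor for CXCL12, stood at 20.7, 40.7, 43.3 and 13.6 CPM in cDC1 and 50.6, 388 and 834 CPM in cDC2 (-3.61 ± 0.498, adjusted p 5.88e-07). Ccr2, the receptor for CCL2, was at 331, 243, 427 and 340 CPM in cDC1 and 228, 219 and 644 CPM in cDC2 and did not pass (-0.0744 ± 0.364). Of the 17 genes of this list tested, 1 was higher and 3 lower. S100a4, a calcium-binding protein, was at 860, 1157 and 720 CPM in cDC2 and at 1.48, 4.84, 3.87 and 0 CPM in the strict cDC1 (123, 86.5, 138 and 23.8 CPM in all members), with a log2 fold change of -3.62 ± 0.386 in all members (adjusted p 2.36e-09). Mcemp1, Tnip3, Ltb4r1, Cd33, Clec4b1, Tmem176a and Ptpro were also lower in cDC1, with log2 fold changes of -3.51 to -5.82.

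The cell cycle and immediate early lists each had calls in 1 direction. Of 18 cell cycle genes tested, 8 were higher in cDC1 and 0 lower, with a median of 1.74, or 1.51 with genes absent from cDC2 set to their bound. In the cDC1 sums, 1 cell per library held 26.1%, 36.6%, 35.0% and 37.1% of the UMIs of this list. The cDC2 were only 16 cells, so a few dividing cells could be missed among them. How far single cells set this difference was not tested. Stmn1, a microtubule regulator, stood at 199, 280, 326 and 562 CPM in cDC1 and had 1 UMI in cDC2, a ratio of 60.7 (counting interval 10.8 to 2403). Pclaf, a partner of the replication clamp PCNA, was at least 9.70-fold higher with 0 UMIs in cDC2, and Hmgb2, a chromatin protein high in dividing cells, stood at 633, 816, 1030 and 1583 CPM against 430, 289 and 379 CPM (1.37 ± 0.340, edgeR adjusted p 0.00582). Of 20 immediate early and heat shock genes tested, 0 were higher and 17 lower, with a median of -1.89, and 18 were lower in the strict cDC1. Jun stood at 164, 440, 329 and 146 CPM in cDC1 and 1164, 1841 and 3486 CPM in cDC2 (-3.07 ± 0.359, adjusted p 1.35e-08). Fos, its partner in AP-1, had a log2 fold change of -2.12 ± 0.297 and Hspa1a, a heat shock chaperone, one of -2.86 ± 0.339. Genes of this list are also known to rise during tissue dissociation, whose part in the difference was not tested.

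**Figure D5:**
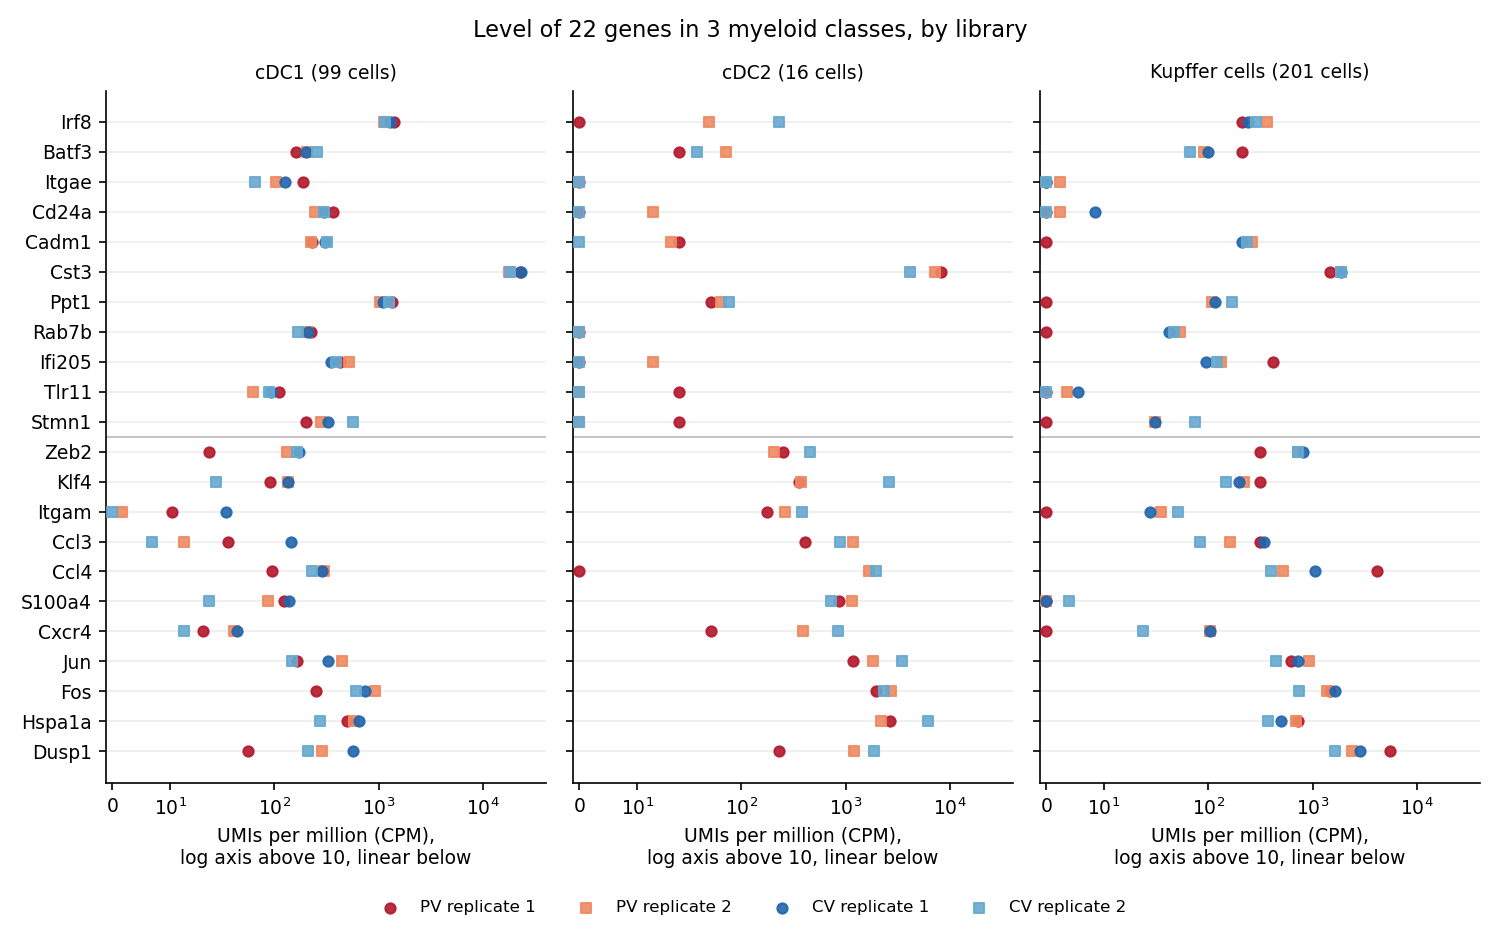
Levels in CPM (x axis, log above 10) of 22 genes (y axis) are drawn per library in cDC1, cDC2 and Kupffer cells, with genes higher in cDC1 than in cDC2 above the line and genes lower below it. Irf8, Ppt1 and Cd24a lie to the right in cDC1 and to the left in cDC2, while Jun, Hspa1a, Itgam and S100a4 show the opposite order, and CV replicate 1 has no cDC2.

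The last comparison set cDC1 against Kupffer cells, with sums of 9597, 850515, 359201 and 254822 UMIs. The Kupffer cells were chosen by at least 3 of the 6 Kupffer markers among cells that were neither cDC1 nor cDC2. Of 4297 genes, the same test called 1017 higher in cDC1 (23.7%) and 975 lower (22.7%). Among the strict cDC1, 995 of 3764 were higher (26.4%) and 1070 lower (28.4%). Scaling by library totals in place of TMM moved the median log2 fold change of all genes from 0.0347 to -0.36 and the split to 645 higher and 1547 lower, and the changes below are relative to the first of these medians. Without CV replicate 1 the split was 1354 and 484, and without CV replicate 2 it was 1497 and 496.

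Against Kupffer cells, 10 of 16 factors were higher and 3 lower, with a median of 1.67. Irf8 had a log2 fold change of 2.43 ± 0.292 and Batf3 one of 1.59 ± 0.257. Cbfa2t3, a corepressor in cDC1 development, stood at 250, 205, 208 and 184 CPM against 0, 7.05, 0 and 0 CPM (5.92 ± 0.416, edgeR adjusted p 5.89e-43). Bcl11a was at 0 in Kupffer cells and at least 24.3-fold higher in cDC1. Of 20 further cDC1 genes, 16 were higher and 1 lower (median 3.74), and of 15 class II genes 10 were higher and 3 lower (median 2.05). Ciita, the master regulator of class II genes, stood at 260, 197, 234 and 174 CPM against 0, 22.3, 13.9 and 19.6 CPM (3.71 ± 0.319, adjusted p 6.36e-29). Ctss was among the class II genes that were lower (-1.42 ± 0.292), as were Lgmn and Ctsl. These list counts under scaling by library totals were 10 and 4 factors, 16 and 1 further genes, and 10 and 4 class II genes.

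Of 23 class I genes, 7 were higher and 5 lower, shares near those of all genes tested (23.7% and 22.7%), and the median was 0.0610, which turned to -0.46 with library totals and to -0.44 in the strict cDC1. Psmb8, an immunoproteasome subunit, was higher (2.34 ± 0.278, edgeR adjusted p 9.75e-16) and B2m, the class I light chain, lower (-0.75, adjusted p 0.0372). Ccr2 stood at 0, 2.35, 2.78 and 0 CPM in Kupffer cells, 3 UMIs in all, a ratio of 159 (counting interval 54.1 to 772). Btla, Napsa, Anxa1, Plp2, Gcsam and Gpr141b were at 0 in Kupffer cells, and higher in cDC1 by at least 59.4-, 164-, 61.4-, 62.6-, 73.9- and 57.2-fold. Napsa is an aspartic protease, Anxa1 a phospholipid-binding protein and Plp2 a membrane protein. Flt3, the receptor of the cytokine on which cDC1 depend and 1 of the cDC2 markers, was at 182, 143, 173 and 191 CPM in cDC1 and at 0 in Kupffer cells, at least 83.7-fold higher, and was not tested.

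Kupffer cells were the higher class for several other groups. Of 11 receptors and bridges of apoptotic cells, 1 was higher in cDC1, Havcr2, which encodes TIM-3 (5.56 ± 0.442, edgeR adjusted p 7.76e-34), and 9 were lower, with Axl at 9.06, 89.9, 46.2 and 163 CPM against 625, 609, 543 and 636 CPM. Only 1 of 75 strict cDC1 held an Axl UMI. Of 12 cytokines and chemokines, 9 were lower and 1 higher: Cxcl2, a neutrophil attractant, had a log2 fold change of -4.37 ± 0.295, and Ccl5 was higher through the single CV replicate 1 cell described above, which held 173 of 189 Ccl5 UMIs of that sum. Of 13 maturation genes 0 were higher and 9 lower, and of 15 interferon genes 0 were higher and 8 lower (13 lower with library totals). Of 8 pattern recognition genes, 1 was higher and 3 lower (7 lower with library totals). With 8 genes, these counts do not set the list apart from all genes tested (23.7% higher and 22.7% lower). Scaling by library totals made 1547 of all 4297 genes lower, so the counts of 13 and 7 include that shift. Of 15 cell cycle genes 13 were higher and 0 lower, with a median of 2.06. Hmox1, the heme-degrading oxygenase of red cell clearance, stood at 12.9, 49.2, 118 and 191 CPM in cDC1 and 1563, 1707, 1439 and 2924 CPM in Kupffer cells (-4.15 ± 0.315). Fam43a (-4.21), Ppargc1b (-4.49) and C3 (-4.08), the central complement protein, were also lower, and Pld1, a phospholipase, had 2 UMIs in cDC1 and was lower by a ratio of 58.4 (counting interval 15.7 to 490).

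Some genes were shared by cDC1 with other lineages. Ighm, the constant region gene of IgM, was at 127, 175, 144 and 146 CPM in cDC1, held by 76 of 99 cells, while Pax5, Ebf1 and Fcmr were at 0. It stood at 127, 148 and 37.9 CPM in cDC2 and at 0, 4.70, 0 and 0 CPM in Kupffer cells (6.10 ± 0.456, edgeR adjusted p 2.74e-38). Plac8, a gene of monocytes and dendritic cells, was at 841, 1088, 770 and 323 CPM. Dnase1l3, a secreted nuclease also made by sinusoidal endothelium, was at 339, 166, 436 and 194 CPM and higher than in cDC2 (2.35 ± 0.554, adjusted p 0.00335) and Kupffer cells (2.29 ± 0.281, adjusted p 7.20e-15). In Kupffer cells it stood at 0, 168, 19.5 and 11.8 CPM, so that cDC1 were not higher in PV replicate 2. The sum of 10 genes of sinusoidal endothelium, Dnase1l3 among them, was 412, 260, 516 and 310 CPM, with 1 gene, Oit3, at 0. Fcgr2b, an inhibitory Fc receptor of the same list, stood at 63.4, 35.6, 43.3 and 61.3 CPM in cDC1. It was lower than in cDC2 (-3.24 ± 0.395, edgeR adjusted p 3.27e-08) and higher than in Kupffer cells (1.03 ± 0.390, edgeR adjusted p 0.0210). In Kupffer cells Fcgr2b stood at 0, 63.5, 2.78 and 3.92 CPM, so that cDC1 were the lower class in PV replicate 2.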

How the data were processed

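For each of the 4 libraries the authors deposited a matrix of raw UMI counts, made with Cell Ranger 4.0.0 on mm10 per the submitters' processing notes, from droplet 3' libraries (kit v3.1, per the labels' protocols). The annotation and the settings of cell calling were not stated there. The deposited barcodes had at least 500 UMIs. Barcodes with at least 200 genes and at most 10% mitochondrial UMIs were kept, each in the library with at least 70% of its UMIs. The members and gene lists were chosen with earlier results of these data known.

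Counts were summed per library and class. They were tested with edgeR 4.0.16 (quasi-likelihood test, TMM, filterByExpr, Benjamini-Hochberg adjustment) in R 4.3.3: PV against CV by zone, and cDC1 against cDC2 or Kupffer cells with the library as a block. Library shares were compared with an exact permutation test. DESeq2 1.42.0, other scalings, filters, marker limits, thinning to 5000 UMIs, both ways of treating shared barcodes and leaving out each library were alternatives. Doublets were scored with scrublet in scanpy 1.11.5 and kept. The edgeR tests were checked on simulated sums. CPM values divide by the UMIs of the class in the library, so 1 UMI is worth 25.3 CPM in the cDC2 of PV replicate 1 and 104 CPM in its Kupffer cells.

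Genes named between zones were the 10 of smallest p per direction among those with zones not overlapping and at least 10 UMIs. Between classes they were the 12 (cDC2) or 6 (Kupffer cells) largest changes per direction past the test, with at least 100 CPM in the higher class and 1 direction in every library. Of the genes higher than in cDC2, 1 is not reported here. The other named genes are list members, those past the test first. Cd207 between zones and the single cells were singled out after their values were seen.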

Additional observations from a re-analysis of the deposited data

How the results depend on the processing

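Between zones, the count of genes called was 0 in edgeR. DESeq2 called 1 gene, no filter on low counts 54, and at least 4 of 5 markers 6 (C1qa, C1qb, C1qc, Apoe, Wfdc17 and Cd207). Leaving out each library gave 0 to 56 calls. Against cDC2, 265 genes were called, and 111 with DESeq2, 152 with shared barcodes kept, 65 with cells thinned to 5000 UMIs (817 genes tested), 172 with cDC2 chosen by 3 UMIs and 124 to 217 without each library. Against Kupffer cells, 1992 genes were called, 1058 after thinning (2327 genes tested), and 1364 to 2184 without each library. The cause was not tested, except that thinning left fewer genes to test. The difference in share between zones ranged from 1.38 to 7.13 points without each library. The named genes that changed sign with at least 2 of 5 markers were Hes1 between zones (0.0176) and C3 against Kupffer cells (0.16).

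The replicate number as a block gave 1 call between zones, Cxcl9. The labels do not say that the numbers pair the libraries, and the deviations of same-numbered libraries had a correlation of 0.19 over 5001 genes.

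The 16 cDC2 and the 3 Kupffer cells of PV replicate 1 limit the comparisons between classes, and 2 libraries per zone limit those between zones.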
